A study of Mus musculus with 42 samples.

Results

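Vas deferens from adult male mice lacking Hoxd9, Hoxd10 and Hoxd11 was set against vas deferens from adult male mice lacking Hoxa9, Hoxa10 and Hoxa11. The comparison used 6 of the 42 arrays in the series, taken by their titles: 3 labelled Hoxd9,10,11-/- and 3 labelled Hoxa9,10,11-/-, called Hoxd-null and Hoxa-null here. All mice were adults of 3 to 7 months on a mixed CD1/129 background, and each array is a separate biological replicate of whole organ RNA. The labels name no driver or targeted cell type for these mutations and do not say whether animals were pooled. Wild-type vas deferens (n = 3) and 2 compound mutants, Hoxa9,10,11-/-d9,10,11+/- (n = 3) and Hoxa9,10,11+/-d9,10,11-/- (n = 3), completed the 15 vas deferens arrays that set the spread of each gene. In total 19938 genes were tested, from the 21789 of 28856 probe sets that carry 1 gene symbol in the platform annotation.

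Hox genes encode homeodomain transcription factors that give position along the body axis, and the genes numbered from 9 upwards in the HoxA and HoxD clusters act in the hind end of the embryo, including the Wolffian duct. That duct forms the epididymis, where sperm mature in fluid rich in secreted proteins, and, further along, the vas deferens, a tube with a thick coat of smooth muscle that propels sperm. Loss of posterior Hox genes of the A group is known for turning the vas deferens towards an epididymis-like form. The comparison asks how the vas deferens differs according to which of the 2 clusters has lost these genes.

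Each value below is a log2 signal that the authors centred, so that every probe set has a median of 0 over the 21 male arrays. A value of 0 is that median and not absence of the transcript, and values are compared only between arrays for the same gene. A gene is called where the adjusted p of limma's moderated test was below 0.05. The RNA came from whole organs, so that fewer cells of a type and less RNA per cell cannot be told apart.

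The regions just upstream of genes at either end of the comparison are shown first. RefSeq (GRCm38.p6) held the 250 bases before the start of 21 of the 24 leading genes. They were searched on both strands for TTTATG (reverse complement CATAAA), an AT-rich core of the kind that posterior Hox proteins prefer, and for TGTTCT (reverse complement AGAACA), the half-site of the androgen receptor. None of the regions shown holds both words, and capitals mark each match. Akr1cl (chr1:65032760-65033009, minus strand) and Ptprz1 (chr6:22875252-22875501, plus strand) were among the genes higher in Hoxd-null. Svs3b (chr2:164256644-164256893, minus strand) and Defb38 (chr8:19026569-19026818, minus strand) were among the genes lower in Hoxd-null.
Akr1cl: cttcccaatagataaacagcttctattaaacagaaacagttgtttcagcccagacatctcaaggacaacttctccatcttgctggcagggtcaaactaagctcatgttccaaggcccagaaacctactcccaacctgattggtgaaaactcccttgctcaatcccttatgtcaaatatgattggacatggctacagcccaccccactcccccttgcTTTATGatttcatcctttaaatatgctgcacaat
Ptprz1: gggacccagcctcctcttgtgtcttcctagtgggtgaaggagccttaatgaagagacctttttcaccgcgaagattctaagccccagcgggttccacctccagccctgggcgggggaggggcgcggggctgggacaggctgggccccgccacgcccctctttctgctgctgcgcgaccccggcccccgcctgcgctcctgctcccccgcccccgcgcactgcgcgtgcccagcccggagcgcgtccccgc
Svs3b: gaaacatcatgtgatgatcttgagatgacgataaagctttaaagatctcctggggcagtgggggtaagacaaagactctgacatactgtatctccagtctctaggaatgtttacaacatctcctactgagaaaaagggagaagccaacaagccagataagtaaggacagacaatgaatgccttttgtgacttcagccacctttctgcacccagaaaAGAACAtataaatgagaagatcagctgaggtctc
Defb38: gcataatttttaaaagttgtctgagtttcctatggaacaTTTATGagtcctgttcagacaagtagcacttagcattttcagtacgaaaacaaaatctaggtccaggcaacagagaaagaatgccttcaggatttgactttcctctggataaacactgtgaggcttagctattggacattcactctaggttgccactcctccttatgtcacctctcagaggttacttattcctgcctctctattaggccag
Counted from the start, the TTTATG match has its first base at -34 in Akr1cl and at -211 in Defb38. Svs3b holds AGAACA with its first base at -34, and Ptprz1 holds neither word. TTTATG was found upstream of 2 of the 21 leading genes and of 11.1% of 27025 promoters of the same length, and TGTTCT upstream of 5 of the 21 and of 16.2% of all. These are matches of letters only.

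The vas deferens arrays had medians from -0.05 to 0.03 over all genes and SDs from 0.177 to 0.352, apart from replicate 3 of Hoxa9,10,11-/-d9,10,11+/-, whose SD was 0.473. That array enters the estimate of the spread but not the difference between Hoxd-null and Hoxa-null, and without it 4072 genes were called in place of 3551. The labelled tissue was checked on 30 smooth muscle genes, whose mean in wild type was 0.80, 0.67 and 0.24. In wild-type epididymis it was -0.11, -0.64 and -0.76. The Hoxa-null vas deferens arrays, at 0.03, 0.09 and -0.30, overlapped wild-type epididymis, so that the check covers wild type only. The mean of 11 vas deferens identity genes was 1.87, 2.00 and 1.96, but that list was drawn with earlier results of these data known and is no check of the label.

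Of the targeted genes, Hoxa11 and Hoxd9 differed in the direction of the labels. Hoxa11 read -0.37, -0.55 and -0.63 in the Hoxa-null arrays and 1.66, 1.23 and 1.66 in the Hoxd-null arrays, with 1.38, 1.17 and 0.43 in wild type. All 3 Hoxd-null values lie above all 3 Hoxa-null values, and the difference was 2.04 (SE 0.31, adjusted p = 0.00115, limma). Hoxd9 read 0.41, 0.23 and 0.15 in Hoxa-null, -0.86, -0.56 and -0.80 in Hoxd-null, and -0.26, -0.18 and -0.13 in wild type. It was lower in Hoxd-null by 1.01 on the log2 scale (SE 0.08, adjusted p = 7.34e-05, limma), and in these arrays its Hoxa-null values were all above the wild-type values. The other 4 targeted genes were not called: Hoxa9 differed by -0.22 (SE 0.19), Hoxa10 by 0.38 (SE 0.24), Hoxd10 by 0.30 (SE 0.23) and Hoxd11 by -0.29 (SE 0.17). Each is read by 1 probe set. The labels do not say what part of each gene the mutation alters or whether it removes the transcript. A targeted gene that was not called therefore says nothing about its mutation.

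Among Hox genes that were not targeted, Hoxa13 and Hoxd13, the end genes of the clusters, were higher in Hoxd-null. Hoxa13 read -0.20, -0.03 and -0.33 in Hoxa-null against 0.88, 0.79 and 1.09 in Hoxd-null (difference 1.11, SE 0.20, adjusted p = 0.00283, limma). Hoxd13 read -0.19, -0.11 and -0.35 against 0.86, 0.80 and 1.44 (difference 1.25, SE 0.27, adjusted p = 0.0075, limma). Wild-type values of Hoxa13 ran from 0.64 to 0.97 and those of Hoxd13 from 0.29 to 1.07, so that the Hoxa-null arrays were the low ones for both genes. These 2 were the called genes among 16 other HoxA and HoxD genes measured, a share near the 11.4% of all genes that were higher. With the mean of the adipocyte markers described below as a covariate, Hoxd13 differed by 1.24 and was not called (adjusted p = 0.083, limma). With the skeletal muscle mean as well, neither was called (adjusted p = 0.055 for Hoxa13 and 0.128 for Hoxd13, limma). Of 18 HoxB and HoxC genes, Hoxb5 and Hoxb2 were higher and Hoxc10 was lower in Hoxd-null, shares near the 11.4% and 6.37% of all genes. Hoxc10 read 0.05, 0.03 and 0.65 in Hoxa-null and -0.44, -0.42 and -0.49 in Hoxd-null (difference -0.69, SE 0.15). With the adipocyte covariate its difference was -0.32 and it was not called (adjusted p = 0.257, limma). Hoxb5 and Hoxb2 differed by 0.42 and 0.44, and both lost their call without any of Hoxa-null replicates 1 and 3 or Hoxd-null replicates 1, 2 and 3 (highest adjusted p = 0.116 and 0.123, limma).

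Across all genes, 3551 were called, 17.8% of those tested, with 2280 higher in Hoxd-null (11.4%) and 1271 lower (6.37%). In 8448 genes (42.4%) the 3 values of one genotype did not overlap the 3 of the other. The split between directions moved with the scaling: 64.2% of calls were higher in Hoxd-null as deposited, and 52.4% after quantile normalization (1933 higher and 1754 lower). Fewer genes were called without Hoxd-null replicate 1 (2078), Hoxa-null replicate 1 (2208) or Hoxa-null replicate 3 (2210). For 57.6% of the called genes the wild-type mean was nearer to the Hoxd-null mean than to the Hoxa-null mean, and for 10 of the 12 largest falls and 9 of the 12 largest rises.

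The genes with the largest gains in Hoxd-null were enzymes, a receptor and an adhesion protein, and several were as high in wild-type vas deferens. Ptprz1, a receptor-type tyrosine phosphatase, read -1.35, 0.88 and 0.00 in Hoxa-null, 3.78, 3.89 and 3.70 in Hoxd-null, and 2.94, 3.16 and 2.99 in wild type. The difference was 3.95 (SE 0.39, adjusted p = 0.000161, limma), a 15.5-fold higher signal. Akr1cl, an aldo-keto reductase, read -0.29, 0.14 and 0.00 against 2.71, 2.79 and 3.58 (8.45-fold, adjusted p = 4.25e-05, limma), with wild type from 3.53 to 4.18. Eci3, an enzyme of fatty acid oxidation, read 0.02, -0.34 and 0.00 against 2.73, 2.83 and 2.91, and wild type from 3.31 to 4.03. The wild-type arrays of Eci3 were all above the Hoxd-null arrays, and those of Akr1cl overlapped them at one array. Itga2, the integrin alpha-2 chain that binds collagen, read 0.00, 0.77 and -0.42 in Hoxa-null and 2.83, 3.09 and 3.03 in Hoxd-null, beside 2.80 to 2.95 in wild type. Cdkl1, a kinase related to the cyclin-dependent kinases, read 0.00, 0.21 and -0.34 against 2.41, 2.42 and 2.41, and 2.86 to 3.66 in wild type. Hpse2, a heparanase-related protein, read -0.53, 0.16 and -0.20 against 2.56, 1.93 and 2.59. The leading genes were chosen without overlap between the mutants, as held for 42.4% of all genes, so that their separation is no finding. None of these 6 lost its call when any 1 of the 6 arrays was left out.

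Fam167a and Samd12 were higher in Hoxd-null than in wild type as well. Fam167a read -1.08, -0.44 and -0.37 in Hoxa-null, 2.04, 2.15 and 1.91 in Hoxd-null, and 0.91, 1.03 and 1.35 in wild type (difference 2.66, SE 0.25). Samd12 read -0.37, -0.37 and -0.42 in Hoxa-null, 1.83, 1.98 and 1.69 in Hoxd-null, and 0.99, 1.06 and 1.47 in wild type (difference 2.22, SE 0.16, adjusted p = 4.25e-05, limma). In both genes the wild-type values lie between the mutants without touching either. Padi2, which converts arginine in proteins to citrulline, read -1.81, -0.53 and -0.48 in Hoxa-null and 1.51, 1.88 and 1.79 in Hoxd-null, with wild type spread from 0.43 to 1.81. Cyp4b1, a cytochrome P450, read -0.53, 1.18 and -0.24 against 2.77, 2.71 and 1.79 (difference 2.29, SE 0.47, adjusted p = 0.00646, limma). Its wild-type values were 0.02, 0.06 and 1.62, closer to Hoxa-null than to Hoxd-null.

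Signal in some Hoxd-null arrays was far above both other genotypes for 3 secreted products. Cartpt, the precursor of the CART peptide, read -0.31, -0.12 and -0.14 in Hoxa-null, 2.56, 1.28 and 2.08 in Hoxd-null, and -0.27, 0.00 and -0.05 in wild type. Its difference was 2.17 (SE 0.23, adjusted p = 2e-04, limma), and the Hoxa-null and wild-type arrays overlapped. Azgp1, a zinc-binding glycoprotein of secretory epithelium, read -0.34, 0.00 and -0.32 against 2.72, 0.44 and 3.03, with 0.43, 0.49 and 0.02 in wild type. Hoxd-null replicate 2 was thus at the wild-type level while the other 2 were high. Cstdc2, of the cystatin family of protease inhibitors, read -0.30, -0.27 and -0.03 against 2.31, 1.39 and 2.70, with 1.69 in 1 wild-type array and -0.12 and 0.08 in the other 2. The Azgp1 call was lost without Hoxa-null replicate 1 or 3 or Hoxd-null replicate 1 or 3 (adjusted p up to 0.0676, limma). The Cstdc2 call was lost without any of the 3 Hoxa-null arrays or Hoxd-null replicate 1 or 3 (adjusted p up to 0.108, limma).

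Nmu, the precursor of neuromedin U, which contracts smooth muscle, behaved differently from Cartpt. It read -0.05, 0.12 and -0.08 in Hoxa-null, 2.29, 1.79 and 2.38 in Hoxd-null, and 3.37, 3.36 and 2.81 in wild type (difference 2.16, SE 0.17, adjusted p = 5.22e-05, limma). Of 19 neuropeptide genes measured, the 2 and Cck were higher in Hoxd-null and none was lower, beside 11.4% and 6.37% of all genes. Cck differed by 0.57 and kept its call only without Hoxd-null replicate 1 (highest adjusted p = 0.111 over the 6 omissions, limma).

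The largest falls in Hoxd-null were genes of epididymal and accessory-gland secretion and of skeletal muscle. Gpx5, the secreted glutathione peroxidase of the epididymis, read 1.57, 0.68 and 1.15 in Hoxa-null, -3.12, -3.48 and -2.88 in Hoxd-null, and -3.25, -2.96 and -2.42 in wild type. The signal was 19.7-fold higher in Hoxa-null (adjusted p = 0.000897, limma), and its 0.19 to 0.65 in wild-type epididymis lay under the Hoxa-null vas deferens. Rnase9, an epididymal protein of the ribonuclease A family, read 0.75, 0.16 and 0.00 against -3.71, -3.25 and -3.59, with -4.09, -4.83 and -3.88 in wild-type vas deferens and 1.33 to 1.48 in wild-type epididymis. Defb1, an antimicrobial beta-defensin, read 0.84, 0.71 and 0.65 against -2.93, -2.60 and -2.04 (9.55-fold, adjusted p = 0.00018, limma). Defb38, another beta-defensin, read 0.61, -0.26 and 0.00 against -3.97, -2.35 and -2.97. The 2 protease inhibitors among the leading falls, Eppin and Wfdc6a, lay between -0.39 and 0.39 in Hoxa-null and between -3.63 and -2.79 in Hoxd-null. Mmp7, a matrix metalloproteinase that activates defensins in gut epithelium, read 1.79, 1.90 and 0.51 against -2.03, -0.82 and -1.84 (difference -2.97, SE 0.58). For Gpx5, Rnase9, Eppin and Wfdc6a the wild-type and Hoxd-null arrays were low together, and the Hoxa-null arrays alone were high among these 9 arrays.

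**Figure D1:**
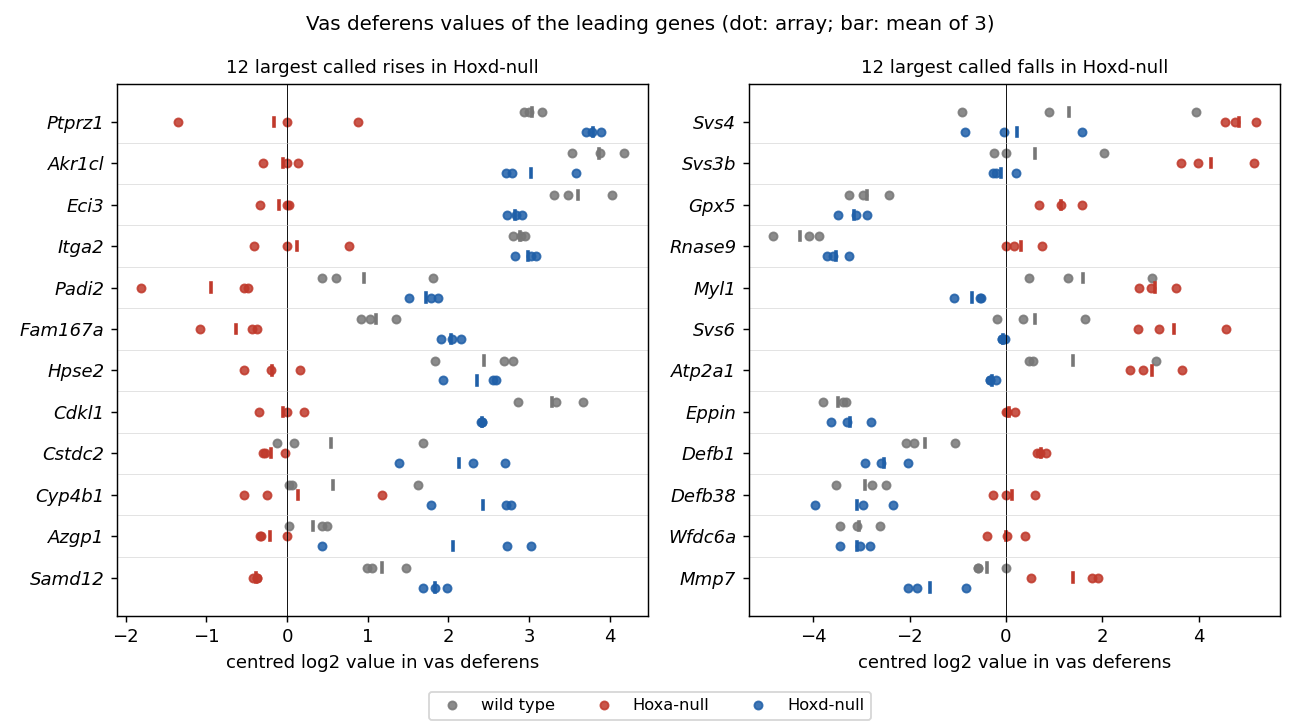
Centred log2 values (horizontal axis) of the 12 largest called rises and the 12 largest called falls in vas deferens, 1 dot per array and a bar for the mean of 3, for wild type, Hoxa-null and Hoxd-null. The Hoxd-null and Hoxa-null dots do not overlap for any of these genes by the rule that chose them, and the grey wild-type dots of Ptprz1, Gpx5 and Rnase9 lie by the Hoxd-null dots.

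Seminal vesicle secretion genes were among the largest falls. Svs3b read 3.62, 3.98 and 5.15 in Hoxa-null and 0.20, -0.21 and -0.27 in Hoxd-null, a 20.3-fold difference (adjusted p = 0.00112, limma), and 2.03 in 1 wild-type array beside -0.24 and 0.00. Svs6 read 2.75, 3.17 and 4.56 against -0.03, -0.07 and -0.09. Svs4 read 4.76, 5.20 and 4.55 against -0.03, -0.86 and 1.59, and from -0.92 to 3.95 in wild type, so that wild type alone covered nearly the whole distance between the mutants. The Svs4 difference of -4.60 (SE 1.32) lost its call without any of the 3 Hoxa-null arrays or Hoxd-null replicate 1 or 2 (adjusted p up to 0.107, limma). Of 16 seminal vesicle and prostate genes, 5 were lower in Hoxd-null and Azgp1 was higher, beside 6.37% and 11.4% of all genes. The list median was -1.25 against 0.03 over all genes. Without Hoxa-null replicate 1, Hoxa-null replicate 3 or Hoxd-null replicate 1 the count of lower genes was 3, and with the adipocyte covariate described below it was 2. The mean of the 16 genes was 1.11, 1.24 and 1.92 in Hoxa-null and -0.03, -0.62 and 0.41 in Hoxd-null, and reached 1.10 in wild-type replicate 3. Those genes mark a neighbouring gland, and their part in the other results was not tested.

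Myl1 and Atp2a1, a light chain of myosin and the calcium pump of fast skeletal fibres, were the other leading falls. Myl1 read 3.02, 2.76 and 3.53 in Hoxa-null, -1.08, -0.52 and -0.54 in Hoxd-null, and 1.30, 0.48 and 3.02 in wild type. The Myl1 call was lost without Hoxa-null replicate 3 or Hoxd-null replicate 1 (adjusted p up to 0.0622, limma), and that of Atp2a1 without any 1 of the 6 arrays (up to 0.102). Of 17 skeletal muscle markers, Atp2a1, Myh4 and Myoz1 were called, all 3 lower in Hoxd-null, beside 6.37% of all genes lower. None of the 17 was called when any 1 array was left out or with the adipocyte covariate. After quantile normalization 9 of the 17 were lower, with a median of -1.40 in place of -1.18. Their mean over the list was 1.10, 0.90 and 1.67 in Hoxa-null and 0.09, 0.03 and 0.09 in Hoxd-null, and 0.40, 0.33 and 1.37 in wild type. A fit with the skeletal muscle mean beside the adipocyte mean as covariates called 1155 genes, against 1444 with the adipocyte mean alone. The part of skeletal muscle RNA in the other results was not tested further.

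Markers of fat moved in the same direction as those of skeletal muscle. Of 23 adipocyte genes, 13 were lower in Hoxd-null and 1 (Slc2a4) was higher, beside 6.37% and 11.4% of all genes. Their median difference was -0.79. Gpd1, the glycerol-3-phosphate dehydrogenase that feeds fat synthesis, read -0.07, -0.36 and 0.22 in Hoxa-null and -2.04, -1.89 and -1.60 in Hoxd-null (difference -1.77, SE 0.28, adjusted p = 0.00156, limma). Gpd1 is also one of the epididymis-high genes described below. Wild-type epididymis minus wild-type vas deferens was 2.42 for Gpd1 and -1.53 for Adipoq, so that Gpd1 does not mark fat alone here. Cd36, a fatty acid receptor, read 0.98, 0.59 and 1.80 against 0.00, -0.57 and -0.25. Adipoq, the adipocyte hormone adiponectin, read 1.27, 0.48 and 2.12 against 0.00, -0.85 and -0.56, and lost its call without Hoxa-null replicate 3 or Hoxd-null replicate 2 or 3 (adjusted p up to 0.0689, limma). The count of 13 fell to 3 without Hoxa-null replicate 3, to 5 without Hoxd-null replicate 2, to 6 without Hoxa-null replicate 1, and to 7 without Hoxd-null replicate 1 or 3. The list mean was 0.48, 0.15 and 0.94 in Hoxa-null, -0.12, -0.38 and -0.21 in Hoxd-null, and -0.78, -0.42 and -0.01 in wild type. With that mean as a covariate 1444 genes were called, 865 higher and 579 lower, and with the skeletal muscle mean as well 1155. A list's count with this covariate is to be read beside these smaller counts over all genes. A lost call alone does not show that a difference became smaller. Of the 24 leading genes, 17 kept their call with the adipocyte covariate, and Cstdc2, Cyp4b1, Azgp1, Svs4, Myl1, Svs6 and Atp2a1 did not (adjusted p from 0.0516 for Cstdc2 to 0.342 for Atp2a1, limma). Their differences with that covariate were 3.32 for Cstdc2, 2.40 for Cyp4b1, 2.76 for Azgp1, -4.32 for Svs4, -3.19 for Myl1, -3.16 for Svs6 and -2.38 for Atp2a1. Those of the first 3 were thus larger than without it, and those of the other 4 smaller.

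**Figure D2:**
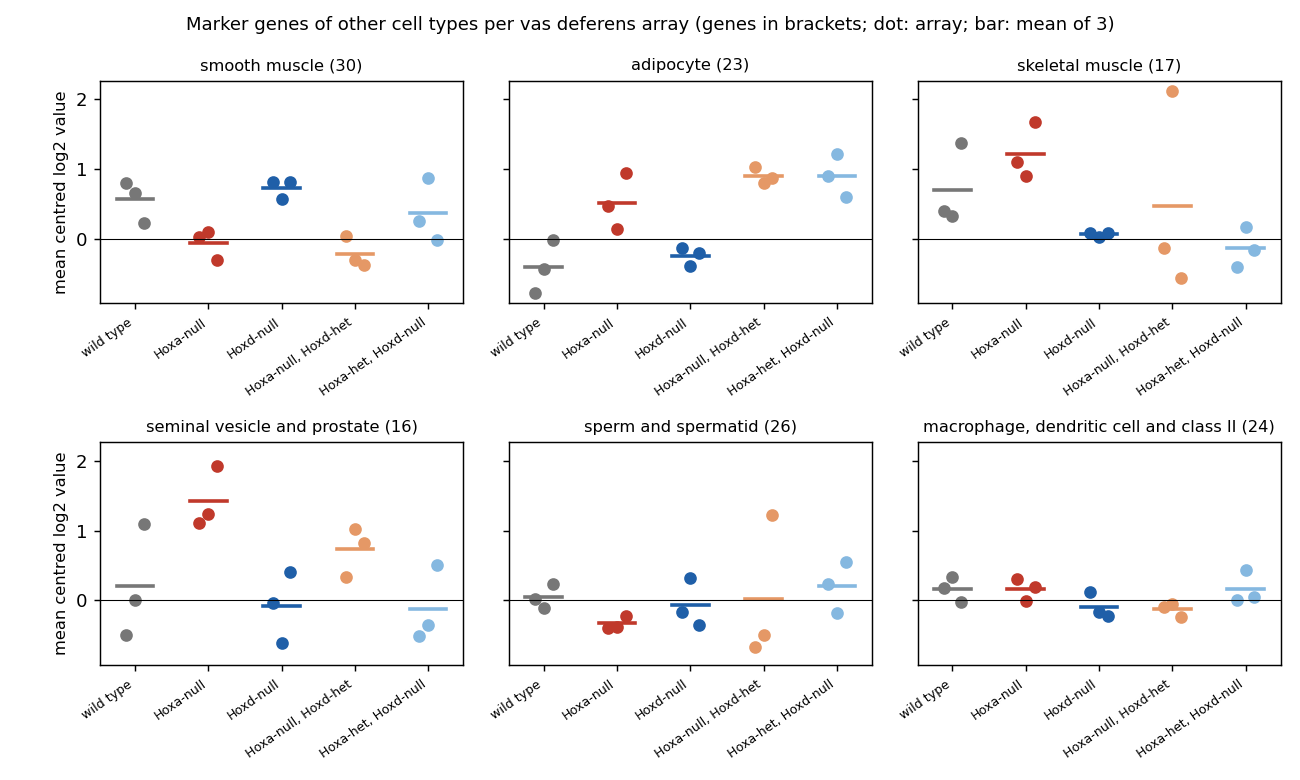
Mean centred log2 value per vas deferens array (vertical axis) over the markers of 6 cell types in 5 genotypes, 1 dot per array and a bar for the mean of 3. Hoxa-null arrays lie above Hoxd-null arrays for fat, skeletal muscle and seminal vesicle genes and below them for smooth muscle genes, and 1 Hoxa-null Hoxd-heterozygous array stands at 2.12 for skeletal muscle.

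Smooth muscle genes were higher in the Hoxd-null vas deferens. Of 30 measured, 22 were higher and none was lower, beside 11.4% and 6.37% of all genes, with a median of 0.83. Myh11, the smooth muscle myosin heavy chain, read -0.11, 0.01 and -0.39 in Hoxa-null and 0.95, 0.72 and 0.83 in Hoxd-null, with 0.63, 0.50 and 0.27 in wild type (difference 0.99, SE 0.19, adjusted p = 0.00474, limma). Mylk, the kinase that starts smooth muscle contraction, differed by 0.94 (SE 0.17). Ryr2, a calcium release channel, read -0.04, -0.03 and -0.17 against 0.96, 0.53 and 0.94 and differed by 0.89 (SE 0.15). P2rx1, the ATP receptor that makes the vas deferens contract, differed by 1.43 and Cacna1c, a calcium channel, by 1.37. Acta2, smooth muscle actin, differed by 0.23 (SE 0.08) and was not called. The mean of the list was 0.03, 0.09 and -0.30 in Hoxa-null, 0.81, 0.58 and 0.81 in Hoxd-null, and 0.80, 0.67 and 0.24 in wild type. The count of 22 became 5 without Hoxa-null replicate 3, 6 without Hoxd-null replicate 1, 8 without Hoxd-null replicate 3, 12 without Hoxa-null replicate 1, and 1 with the adipocyte covariate, where the median was 0.84.

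The secreted protein families were split within themselves. Of 32 beta-defensins 13 were lower in Hoxd-null and 1 (Defb30) was higher, beside 6.37% and 11.4% of all genes, and the median was -0.16. Defb10 read 1.18, -0.12 and 1.13 in Hoxa-null and -1.57, -1.52 and -1.71 in Hoxd-null, and Defb48 read 0.70, 0.63 and 0.77 against -1.19, -0.73 and -1.16. Defb40 and Defb11 differed by -2.84 and -2.27. Defb22, in contrast, read -0.20, 0.00 and -0.16 in Hoxa-null and -0.30, -0.16 and -0.32 in Hoxd-null (difference -0.14, SE 0.30), while wild-type epididymis held 5.39, 6.02 and 6.29. Defb30 read -1.46, -0.84 and -0.18 against 0.56, 1.15 and 0.00, and lost its call without Hoxa-null replicate 1 or 2 or Hoxd-null replicate 1 or 2 (adjusted p up to 0.173, limma).

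Protease inhibitors of the WAP, Kazal, Kunitz, serpin and cystatin families followed the same direction. Of 34 measured 16 were lower in Hoxd-null and 2 were higher (Slpi and Spint5), beside 6.37% and 11.4% of all genes, with a median of -0.67. With the adipocyte covariate 10 were lower and none higher, and the median was -0.77. Wfdc11 read 0.44, 0.11 and 0.00 in Hoxa-null and -2.28, -1.84 and -2.01 in Hoxd-null (difference -2.23, SE 0.24, adjusted p = 0.000212, limma). Wfdc8 differed by -2.12 (SE 0.27) and Wfdc15b by -0.92 (SE 0.12), and the groups of both did not overlap. Slpi, an inhibitor of leukocyte proteases, differed by 1.53 and lost its call in 5 of the 6 omissions, without Hoxa-null replicate 1, 2 or 3 or Hoxd-null replicate 1 or 2 (adjusted p up to 0.135, limma).

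Of 37 epididymal secretory genes 9 were lower in Hoxd-null and 1 (Ros1) was higher, beside 6.37% and 11.4% of all genes. The median was -0.05. Gpr82, an orphan receptor listed with them, read 0.28, 0.14 and 0.00 in Hoxa-null and -2.97, -1.82 and -1.89 in Hoxd-null, with -3.67, -4.71 and -3.60 in wild type. Clu, the chaperone clusterin, read 0.63, 0.19 and 0.00 against -1.14, -0.83 and -0.84 (difference -1.21, SE 0.23). Other genes with high values in wild-type epididymis did not follow. Crisp4, a sperm-binding protein, read -0.76, -0.35 and 0.00 in Hoxa-null and -1.33, -0.26 and -1.02 in Hoxd-null (difference -0.50, SE 0.38), against 4.35, 4.77 and 4.33 in wild-type epididymis. Npy, the neuropeptide Y precursor, differed by 0.02 (SE 0.13) and was at least 5.03 in wild-type epididymis. Luminal acidification and ion transport genes had 7 of 27 lower and Car14 higher, with a median of -0.30. With the adipocyte covariate 1 was lower and none higher, while the median was -0.36. Car4, a membrane carbonic anhydrase, read -0.19, 0.84 and 0.02 against -2.46, -2.55 and -2.62, and Atp6v1g3, a proton pump subunit, 0.41, 0.00 and 0.71 against -1.97, -0.81 and -1.41. The count of 7 was 2 without Hoxa-null replicate 1 or Hoxd-null replicate 1, and 4 without Hoxa-null replicate 2, Hoxa-null replicate 3 or Hoxd-null replicate 3.

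**Figure D3:**
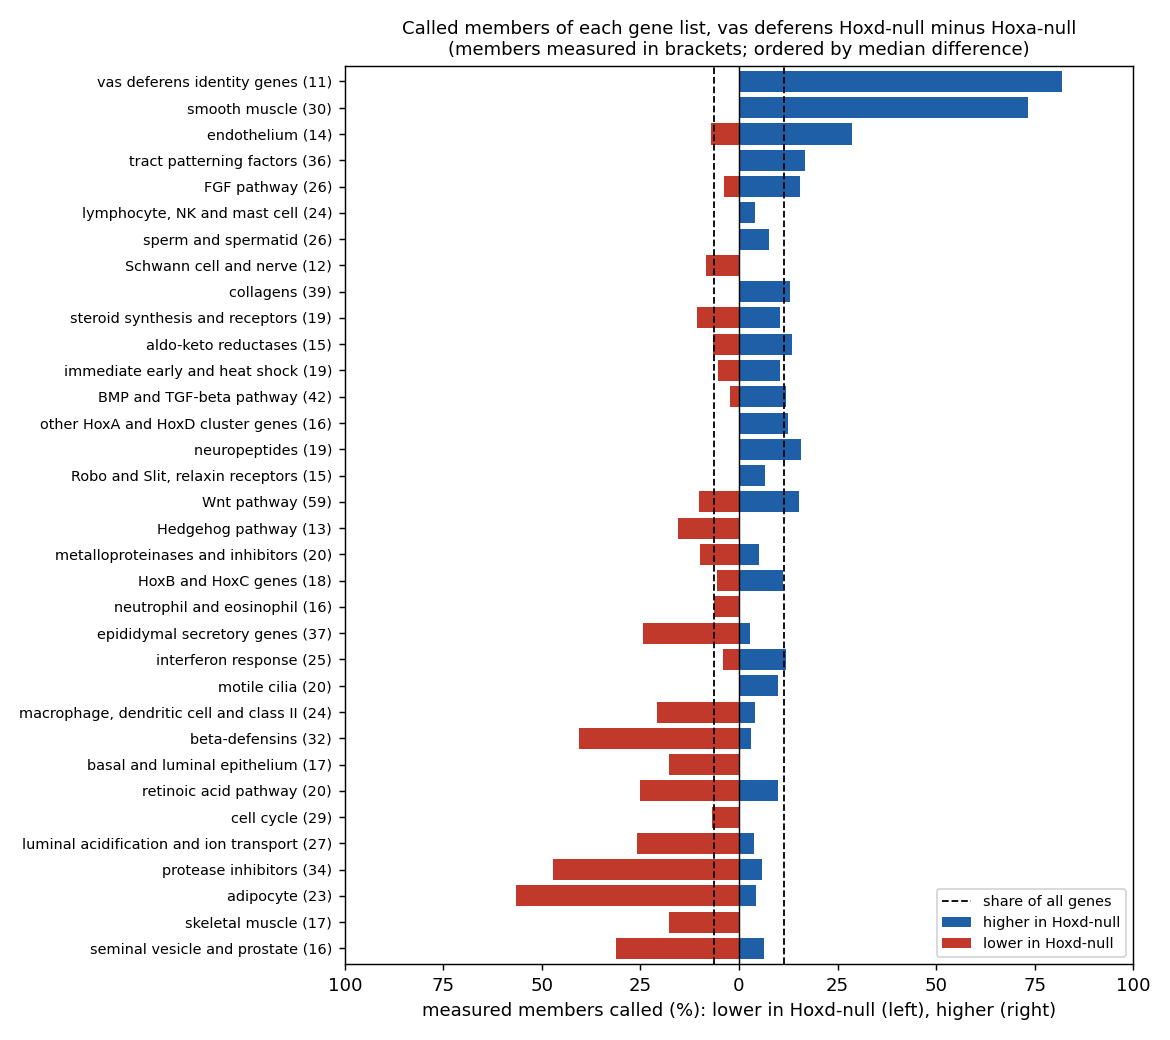
Share of the measured members of each gene list (bars, per cent) called higher (right) or lower (left) in Hoxd-null than in Hoxa-null vas deferens, ordered by the list's median difference, with dashed lines at the shares of all genes (11.4% and 6.37%). Vas deferens identity and smooth muscle genes reach furthest right, and adipocyte, protease inhibitor and beta-defensin genes furthest left.

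The whole transition between the 2 ducts was read as a difference between wild-type arrays, none of which is in the comparison. The spread behind its adjusted p was not from wild-type arrays alone. It came from a fit that also held mutant arrays, among them the Hoxa-null and Hoxd-null arrays compared here. In 216 genes wild-type epididymis exceeded wild-type vas deferens by a log2 difference of at least 2 (adjusted p below 0.01, limma), and in 84 genes the reverse held. Among the 216 epididymis-high genes 112 (51.9%) were lower in Hoxd-null than in Hoxa-null and 2 (Nqo1 and Prm1) were higher, with a median of -1.02. Among the 84 vas-high genes 55 (65.5%) were higher and 2 (Krt4 and Cyp2e1) were lower, with a median of 1.15. Of all genes 6.37% were lower and 11.4% higher in Hoxd-null. Over all arrays of a genotype, epididymis-high genes averaged 1.87 in wild-type epididymis, -1.12 in wild-type vas deferens, 0.06 in Hoxa-null and -0.99 in Hoxd-null vas deferens. Vas-high genes averaged -1.67 in wild-type epididymis, 1.18 in wild-type vas deferens, -0.07 in Hoxa-null and 1.06 in Hoxd-null. On both lists each Hoxd-null array was closer to the wild-type vas deferens mean than each Hoxa-null array was. The Hoxa-null arrays lay between the 2 wild-type tissues, at 0.10, 0.03 and 0.04 for the first list and -0.20, 0.10 and -0.11 for the second. With 1 of the 6 arrays left out, 79 to 103 genes of the first list were called lower and 44 to 49 of the second higher, and with the adipocyte covariate 85 and 40. Choosing the lists from the 6 wild-type arrays alone gave 208 and 77 genes, of which 114 were lower and 54 higher.

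**Figure D4:**
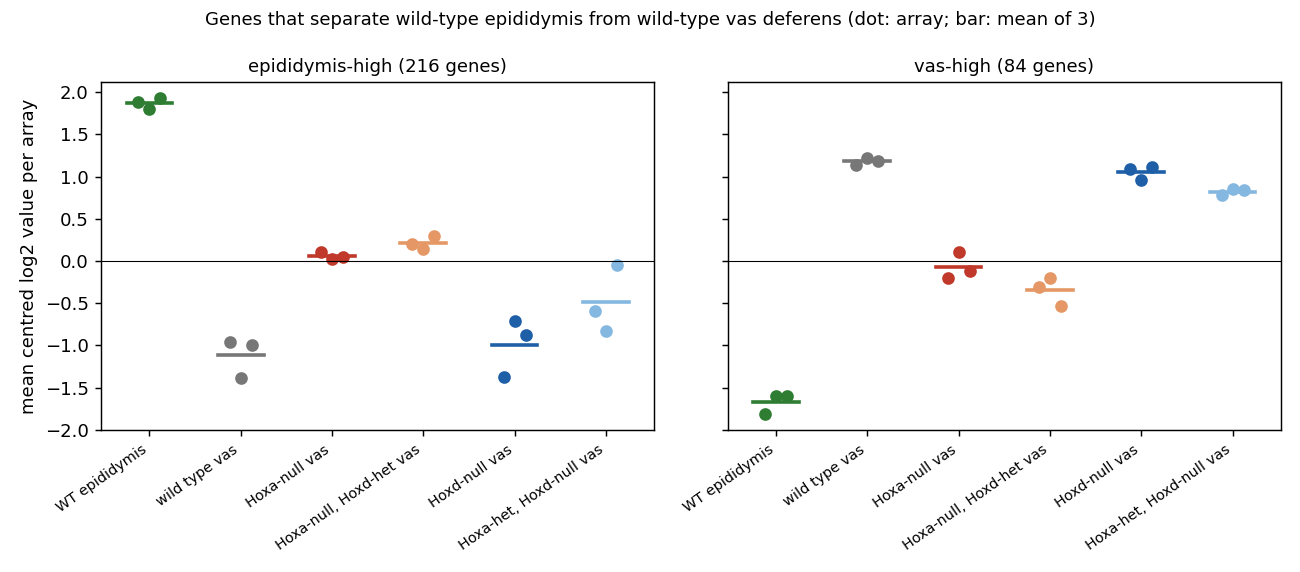
Mean centred log2 value per array (vertical axis) over the 216 epididymis-high and 84 vas-high genes, 1 dot per array and a bar for the mean of 3, in wild-type epididymis and 5 genotypes of vas deferens. Hoxd-null arrays lie by wild-type vas deferens, at -1.38, -0.71 and -0.88 for the first list, and Hoxa-null arrays lie near 0.

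The exceptions in these lists had sizes of their own. Nqo1, a quinone reductase that is higher in wild-type epididymis, read -1.30, -1.05 and -1.37 in Hoxa-null and 0.17, 0.04 and 0.15 in Hoxd-null (difference 1.36, SE 0.18). Krt4, a keratin of stratified epithelium, read 1.33, 1.92 and 1.25 against -0.24, -0.25 and 0.02 (difference -1.66, SE 0.22). The mutants do not overlap for either gene, and neither call was lost when 1 array was left out. Prm1, a protamine of sperm, differed by 2.12 and lost its call without Hoxa-null replicate 1 or 3 or Hoxd-null replicate 1 or 2 (adjusted p up to 0.115, limma). Cyp2e1, which also marks fat, lost its call without Hoxa-null replicate 1 or 3 or Hoxd-null replicate 2 (up to 0.0774). The mean of 26 sperm and spermatid genes was -0.39, -0.38 and -0.22 in Hoxa-null and -0.17, 0.32 and -0.36 in Hoxd-null.

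A shorter list of vas deferens identity genes had 9 of 11 higher in Hoxd-null and none lower, beside 11.4% and 6.37% of all genes. That list was drawn with earlier results of these data known and is no independent evidence. Beside Ptprz1, Akr1cl, Eci3, Cdkl1 and Nmu it holds Crygc, a crystallin (difference 1.84, SE 0.27), Kcnj16, a potassium channel (1.25, SE 0.24), and Abcg2, an efflux pump (1.16, SE 0.23). Crygc read -0.65, 0.00 and 0.04 in Hoxa-null, 1.46, 1.83 and 1.63 in Hoxd-null, and 1.37, 1.70 and 1.51 in wild type. Abcg2 read -0.85, 0.30 and 0.00 against 0.92, 1.02 and 1.00, with 1.00, 1.00 and 1.10 in wild-type vas deferens and -4.33, -4.84 and -4.84 in wild-type epididymis. All Hoxa-null values of Abcg2 were thus far nearer to wild-type vas deferens than to wild-type epididymis. Among 15 aldo-keto reductases, Akr1cl stood alone in size: Akr1a1 differed by 0.14 and Akr1c19 by -1.62. Those 2 calls were lost without Hoxa-null replicate 1, 2 or 3 or Hoxd-null replicate 1 or 3, and that of Akr1a1 also without Hoxd-null replicate 2 (adjusted p up to 0.108 and 0.141, limma).

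Signalling pathways that pattern the tract had calls in both directions. Of 59 Wnt pathway genes 9 were higher and 6 lower in Hoxd-null, beside 11.4% and 6.37% of all genes, and the median was 0.03. With the adipocyte covariate 3 were higher and 3 lower, and the median was 0.08. Axin2, the usual readout of canonical Wnt signalling, read 0.33, 0.08 and 0.00 in Hoxa-null and -1.06, -1.15 and -0.95 in Hoxd-null, with -0.92, -1.27 and -1.07 in wild type (difference -1.19, SE 0.13, adjusted p = 0.000206, limma). Lgr4, a receptor for R-spondins, differed by -0.90 (SE 0.14), and Tcf7l2, a transcription factor of the pathway, by 0.70 (SE 0.11). Wif1, a secreted Wnt inhibitor, read -0.42, -0.17 and -0.18 against 1.06, 1.34 and 1.91. Lgr5, another R-spondin receptor, differed by 1.56 (SE 0.50, adjusted p = 0.0499, limma), and lost its call when any 1 of the 6 arrays was left out. The higher count was 5 without Hoxa-null replicate 1 or 2 and 4 without Hoxa-null replicate 3 or Hoxd-null replicate 1 or 3.

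Of 42 BMP and TGF-beta genes 5 were higher and Bmpr1b, a BMP receptor, was lower, shares near the 11.4% and below the 6.37% of all genes. After quantile normalization 5 were higher and 3 lower, and with the adipocyte covariate 3 and 1. Bmpr1b read 0.30, 0.22 and 0.09 in Hoxa-null and -1.10, -0.88 and -0.81 in Hoxd-null (difference -1.14, SE 0.13). Smad7, an inhibitor of the pathway, differed by 0.80 (SE 0.12) and the BMP target Id3 by 0.78 (SE 0.16). The higher count was 3 without Hoxa-null replicate 3 or Hoxd-null replicate 1. Of 26 FGF pathway genes 4 were higher and 1 lower (2 and 1 with the adipocyte covariate), beside 11.4% and 6.37% of all genes. Fgf9, a ligand, read -0.32, -0.05 and 0.13 against 0.78, 0.80 and 0.81. The higher count was 2 without Hoxa-null replicate 1 or Hoxd-null replicate 1, and 7 without Hoxa-null replicate 2. The retinoic acid pathway had 5 of 20 lower and 2 higher, beside 6.37% and 11.4% of all genes. With the adipocyte covariate 2 were lower and 2 higher, and the median was 0.01 in place of -0.19. Crabp2, a retinoic acid carrier, read 0.00, 0.23 and 0.42 against -1.85, -1.06 and -1.03 (difference -1.53, SE 0.23), and Rbp4, the retinol carrier that fat also makes, differed by -1.44 (SE 0.31). The count of 5 was 2 without Hoxa-null replicate 1 or Hoxd-null replicate 1 or 3, and 3 without Hoxa-null replicate 3 or Hoxd-null replicate 2.

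Of 36 transcription factors that pattern the tract 6 were called higher in Hoxd-null and none lower, beside 11.4% and 6.37% of all genes, and 24 of the 36 differences were positive. Eya1 and Eya4, co-activators with phosphatase activity in organ formation, differed by 1.72 (SE 0.32) and 1.32 (SE 0.16). Eya1 read -0.22, 0.00 and -0.50 in Hoxa-null, 1.69, 0.99 and 1.77 in Hoxd-null, and 1.81, 1.86 and 1.11 in wild type. Eya4 read -0.42, -0.25 and -0.22 against 1.16, 0.85 and 1.06. Pax8, a factor of the nephric and Wolffian ducts, read -0.45, -0.19 and -0.42 against 0.43, 0.58 and 0.39 (difference 0.82, SE 0.10, adjusted p = 0.000437, limma). Meis1, a cofactor of Hox proteins, differed by 1.01 and lost its call without any of the Hoxa-null arrays or Hoxd-null replicate 1 or 3 (adjusted p up to 0.108, limma). The count of 6 was 3 without Hoxa-null replicate 3 or Hoxd-null replicate 1. Slit2, a guidance ligand, was the 1 called gene of 15 Robo, Slit and relaxin receptor genes, at -0.34, -0.33 and 0.06 against 0.75, 0.54 and 0.67.

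The same exchange of clusters was read on other arrays, in compound mutants that keep 1 copy of the other cluster's genes. There Hoxa9,10,11+/-d9,10,11-/- was compared with Hoxa9,10,11-/-d9,10,11+/-, which shares the estimate of the spread but no array. In that contrast 808 genes (4.05%) were called, 479 higher and 329 lower, and 436 without replicate 2 of Hoxa9,10,11+/-d9,10,11-/-. The share of its calls that were higher was 59.3% as deposited, 42.2% after quantile normalization and 45.5% without replicate 3 of Hoxa9,10,11-/-d9,10,11+/-, the array with the wide SD. Of the 2280 genes higher in Hoxd-null, 2030 (89.0%) had the same sign there and 345 (15.1%) were called the same way. Of the 1271 lower genes, 1058 (83.2%) had the same sign and 231 (18.2%) were called the same way. Of all genes 60.5% had a positive difference in that contrast. The 579 genes called in both made 16.3% of the calls in the homozygous mutants and 71.7% of those in the compound mutants, and 576 of them had the same direction. The median difference of the higher genes was 0.42 in the homozygous and 0.18 in the compound mutants, and that of the lower genes -0.51 and -0.21. These genes were chosen by their calls in the homozygous mutants, which by itself favours smaller differences on other arrays, so the medians are a description.

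Of the 11 vas deferens identity genes, 8 were called higher there and none lower, against 9 in the homozygous mutants. Ptprz1 differed by 4.37 (SE 0.39), Akr1cl by 3.71 (SE 0.22), Eci3 by 3.27 (SE 0.24) and Cdkl1 by 2.95 (SE 0.18), and each was called. Kcnj16 differed by 0.88 (adjusted p = 0.0617, limma) beside 1.25 in the homozygous mutants, and Aqp2 by 0.39 (adjusted p = 0.726, limma) beside 1.11, where it was not called either. Cdkl1 read -0.94, -1.12 and -0.95 in Hoxa9,10,11-/-d9,10,11+/- and 2.10, 1.78 and 1.95 in Hoxa9,10,11+/-d9,10,11-/-, with no overlap. Several leading secretion genes were not called. Gpx5 read 0.61, 0.62 and -2.19 against -1.19, 0.00 and -0.71 (difference -0.31, SE 0.62), and Svs3b -0.11, 2.13 and 0.04 against -0.41, -0.19 and -0.31 (difference -0.99, SE 0.66). The Gpx5 value of -2.19 is from replicate 3 of Hoxa9,10,11-/-d9,10,11+/-, the array with the wide SD. Replicates 1 and 2 of that genotype lay above all Hoxa9,10,11+/-d9,10,11-/- values of Gpx5, so its small difference rests on 1 array. Azgp1 differed by 0.32 (SE 0.56) and Cartpt by 0.55 (SE 0.23), and neither was called. Vas-high genes had 48 of 84 called higher and 1 lower in that contrast, and epididymis-high genes 51 of 216 lower and 1 higher. Of all genes 4.05% were called there in either direction. The smooth muscle median was 0.62 with 2 of 30 genes called, and the adipocyte median was 0.02 with none called, against -0.79 in the homozygous mutants. Both compound mutants had high adipocyte means, from 0.80 to 1.04 in Hoxa9,10,11-/-d9,10,11+/- and from 0.60 to 1.22 in Hoxa9,10,11+/-d9,10,11-/-.

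A test of the difference between the 2 contrasts, made after the values had been seen, called 26 genes (0.130%). The homozygous minus compound difference was positive in 8 of them, all higher in Hoxd-null, and negative in 18, all lower in Hoxd-null. The homozygous difference is itself a part of that difference, which favours the same sign. It held for 93.3% of all genes called higher in Hoxd-null and 90.2% of those called lower. The number of genes that the test called was 2 to 44 with 1 array left out. It was 2 without Hoxa-null replicate 2, Hoxd-null replicate 1, Hoxd-null replicate 3 or either replicate 1 or 3 of Hoxa9,10,11+/-d9,10,11-/-, and 44 without replicate 3 of Hoxa9,10,11-/-d9,10,11+/-. A gene that this test did not call is not thereby shown to be alike in both contrasts. Cwc22, a splicing factor gene singled out after its values were seen, read 0.10, 0.11 and -0.05 in Hoxa-null, 1.51, 1.36 and 1.53 in Hoxd-null, and -0.07, -0.05 and -0.01 in wild type. It differed by 1.41 (SE 0.10) there and by 0.02 in the compound mutants, and the difference of the 2 was 1.39 (adjusted p = 0.00482, limma).

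**Figure D5:**
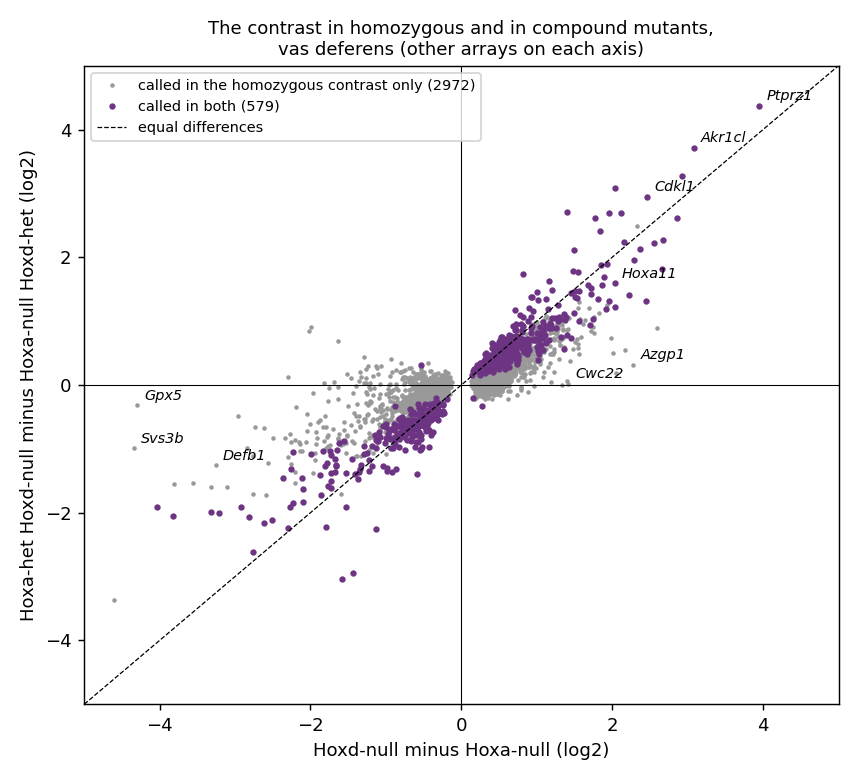
Log2 difference of each of the 3551 called genes between Hoxd-null and Hoxa-null vas deferens (horizontal axis) and between the compound mutants Hoxa9,10,11+/-d9,10,11-/- and Hoxa9,10,11-/-d9,10,11+/- (vertical axis), with the 579 genes called in both in purple. Ptprz1, Akr1cl and Cdkl1 lie near the line of equal differences, and Gpx5, Svs3b and Azgp1 lie between -0.99 and 0.32 on the vertical axis.

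The uterus of the same 2 genotypes, from other arrays, gave few calls. Hoxd-null and Hoxa-null uterus differed in 37 genes (0.186%), with 7 called without Hoxa-null uterus replicate 1, 11 without Hoxd-null uterus replicate 3, 15 without Hoxa-null or Hoxd-null uterus replicate 2, and 150 without Hoxa-null uterus replicate 3. Of the genes higher in Hoxd-null vas deferens 63.2% had the same sign in uterus, and of the lower genes 58.5%, with 51.3% of all genes positive there. The difference between the tissues was called for 1176 genes (5.90%), for 697 without Hoxd-null vas deferens replicate 1 and 698 without Hoxa-null vas deferens replicate 1. It was called for 761 without Hoxa-null vas deferens replicate 3, 781 without Hoxd-null vas deferens replicate 2 and 727 without Hoxa-null uterus replicate 2. Scin, an actin-severing protein, and Smoc2, a matrix protein, were called higher in Hoxd-null in each tissue: Scin differed by 0.61 in vas deferens and 1.15 in uterus, and Smoc2 by 1.29 and 2.01. Hoxa11 differed by 2.66 in uterus (SE 0.56, adjusted p = 0.0855, limma), which was not called, beside 2.04 in vas deferens. Ptprz1 differed by 1.74 (SE 0.35, adjusted p = 0.0728, limma) in uterus, and Cdkl1, in the opposite direction to vas deferens, by -1.56 (SE 0.31, adjusted p = 0.0697, limma).

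Genes near the 2 clusters could be inherited together with the mutant alleles, and 100 measured genes on each side of each cluster were counted. Beside the Hoxa cluster 18 and 11 were called, and beside the Hoxd cluster 17 and 14, shares that lie around or under the 17.8% of all genes. The counted genes include many olfactory and vomeronasal receptor genes, of which Olfr1029 alone was called, and these lower the shares of the sides that hold them. Whether genes near the clusters were called more often was not tested. On the side of the Hoxd cluster with higher coordinates 13 were higher and 1 was lower in Hoxd-null, beside 11.4% and 6.37% of all genes. The higher share is near that of all genes. Mtx2, a mitochondrial import protein next to the cluster there, differed by 0.40 (SE 0.08), and Cwc22 is the 18th measured gene out on that side. Gpr155, a membrane protein and the 8th measured gene out on the other side, read -0.57, -0.58 and -0.62 in Hoxa-null and 0.47, 0.47 and 0.40 in Hoxd-null. Beside the Hoxa cluster, Tax1bp1, an autophagy receptor, differed by 0.47 (SE 0.06) and Snx10, a sorting nexin, by -0.53 (SE 0.10). In the compound mutants Gpr155 differed by 0.90, Mtx2 by 0.27 and Tax1bp1 by 0.15, and of these only Gpr155 was called. Inheritance with the mutant alleles was not tested.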

How the data were processed

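Total RNA (300 ng, RNeasy, per the labels' protocols) was read on Affymetrix arrays. The deposited series table holds log2-like values; the authors centred them, since every probe set has a median of 0 over the 21 female and over the 21 male arrays. The log base is taken as 2. The summarisation and normalization before centring were not given in the sources used here. Absolute signal is lost, and signal over background could not be read.

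Probe sets with 1 gene symbol were averaged per gene. Of 28856, 21789 had 1 symbol, 1621 several and 5446 none, and 21698 matched the gene table by gene ID. limma 3.58.1 (R 4.3.3; lmFit, eBayes) was fitted to the 15 vas deferens arrays, 5 groups of 3, with Benjamini-Hochberg adjustment over 19938 genes. It was tested on simulated data. P-values rest on 3 biological replicates a group.

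Named are the 6 targeted genes, the 12 largest called rises and falls without overlap (predicted genes passed over), and up to 3 members of each list by adjusted p. Others were named after their values were seen. The members and lists were chosen with earlier results of these data known. Quantile normalization, other probe set rules, variance settings, marker covariates, the replicate number as a block and omission of each array were tried. The test between homozygous and compound mutants and the choice of segment genes from 6 wild-type arrays were added after seeing the data.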

Additional observations from a re-analysis of the deposited data

Results flagged for a closer look

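The Hoxd-null minus Hoxa-null contrast was compared between vas deferens and uterus in 1 limma fit, and 22 of the 24 leading genes and Hoxd9 differed between the tissues (adjusted p below 0.05), beside 5.90% of all genes. The 24 were chosen for their large vas deferens differences, which by itself favours a difference from uterus, so the count is a description. Among genes higher in Hoxd-null vas deferens, the vas deferens minus uterus difference was 4.02 for Cdkl1, 3.68 for Padi2, 2.94 for Akr1cl, 2.87 for Eci3, 2.83 for Cyp4b1, 2.69 for Hpse2, 2.62 for Fam167a, 2.43 for Cstdc2, 2.27 for Azgp1, 2.21 for Ptprz1, 2.12 for Samd12 and 1.89 for Itga2. The contrast in uterus was -1.56 for Cdkl1 and -1.01 for Padi2.

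Among genes lower in Hoxd-null vas deferens it was -4.61 for Svs4, -4.28 for Gpx5, -4.03 for Svs3b, -3.89 for Myl1, -3.83 for Rnase9, -3.64 for Svs6, -3.31 for Atp2a1, -3.25 for Defb1, -3.23 for Defb38 and -2.87 for Eppin. Hoxd9, a targeted gene, differed by -1.11 between the tissues, with 0.11 (SE 0.30) in uterus. Wfdc6a and Mmp7 were not called. No test for an outlying value of a single gene was made in groups of 3 arrays.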

How the results depend on the processing

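For the Hoxd-null against Hoxa-null vas deferens, 3551 calls became 5381 with array weights, 1444 with the adipocyte covariate and 1155 with the skeletal muscle covariate added, and 2078 to 2697 with 1 array left out. The replicate block gave 3302. The replicate numbers did not pair the 2 genotypes (correlations of same-numbered arrays -0.021, -0.08 and -0.224). In uterus 37 calls became 59 after quantile normalization, 18 with the replicate block, and 7 to 150 with 1 array left out. The compound mutants gave 685 calls with the replicate block, and 436 to 742 with 1 array left out. The tissue difference gave 1193 with the block and 697 to 1437 with 1 array left out. The test between homozygous and compound mutants gave 8 calls with the block, 2 to 44 with 1 array left out, and 44 without the array that stands apart. The cause was not tested. No named gene that was called changed direction under any of these settings. Of 121 named genes, 49 lost their call with the adipocyte covariate, 10 with the replicate block and 9 after quantile normalization.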

Other observations

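Lists of other cell types and processes, described by counts only, were mixed, beside 11.4% of all genes higher and 6.37% lower in Hoxd-null. Of 14 endothelial genes 4 were higher in Hoxd-null and Esam was lower, with Kdr, a receptor for VEGF, at a difference of 0.91. Kdr and Vwf lost their calls without Hoxa-null replicate 2 or 3 or Hoxd-null replicate 1. The higher count was 0 to 2 with any 1 of the 6 arrays left out. With the adipocyte covariate it was 0, while the list median was 0.27 in place of 0.18. Of 39 collagens 5 were higher, a share near that of all genes, and none lower. Among the 5 were Col6a3 (1.03, SE 0.23) and Col8a1 (0.54). The count was 3 without Hoxa-null replicate 3 or Hoxd-null replicate 1, and 2 with the adipocyte covariate. Of 24 macrophage, dendritic cell and class II genes 5 were lower and 1 higher, and the lower count was 0 to 5 with 1 array left out. With the adipocyte covariate it was 0, and the list median was -0.01 in place of -0.15. S100a8, a neutrophil calcium-binding protein, read 1.23, 0.74 and 1.44 in Hoxa-null and -2.33, -0.48 and -1.31 in Hoxd-null (difference -2.51, SE 0.48). It was the 1 called gene of 16 neutrophil and eosinophil markers, a share near the 6.37% of all genes lower.

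Interferon response genes had 3 of 25 higher and 1 lower, beside 11.4% and 6.37% of all genes. Ifih1 differed by 0.85 and Ddx58, another sensor of viral RNA, by 0.71. Of 12 Schwann cell and nerve genes, Dbh, the enzyme that makes noradrenaline, was the 1 called: it read 0.36, 0.18 and 0.26 in Hoxa-null and -0.37, -0.21 and -0.46 in Hoxd-null, and was not called with the adipocyte covariate. Of 29 cell cycle genes 2 were lower, a share near the 6.37% of all genes, with a list median of -0.27. Of 17 epithelial keratins and markers 3 were lower, none of which kept its call in every omission of 1 array. B3galt2, a galactosyltransferase, read 0.31, -0.18 and 0.16 in Hoxa-null and -2.96, -2.37 and -2.60 in Hoxd-null, and differed by -0.67 in the compound mutants, where the difference between the 2 contrasts was called (-2.07, adjusted p = 0.0338, limma).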
